A study of Mus musculus with 48 samples.

Results

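Cells of the empty vector line sampled 12 h after 4-hydroxytamoxifen (4-HT) were compared with cells of the same line sampled 6 h after it, with 9 h as the intermediate time. These are 9 of the 48 arrays of the series, 3 at each time, and were chosen by their labels; the 3 arrays of the same line at 0 h served to say where each gene stood before. The question is which changes present at 6 h had moved back towards the 0 h level by 12 h, and which genes changed only later, in cells without a fusion protein. All cells were mouse 32D, a cytokine-dependent myeloid progenitor line, that express p210 BCR/ABL, the kinase of chronic myeloid leukaemia, and all had been transduced with the MigRI retroviral vector. The empty vector line carries no C/EBPα-ER. The other lines carry K298E C/EBPα-ER, described as deficient in DNA binding, WT C/EBPα-ER, or Δ(177-191) C/EBPα-ER, described as deficient in interaction with CDK2 and CDK4. In these fusions the estrogen receptor part is what 4-HT binds.

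All cultures received 4-HT, and untreated cultures at 6 h or later were not analysed here, so time in culture and 4-HT cannot be told apart. There was 1 line per construct. The labels speak of triplicates and of separate experiments without tying replicate numbers to either. A p-value here reflects the variation among the 3 arrays of a group, pooled over all 16 groups of the series, and this may be technical.

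As background, amino acid shortage and other stresses raise translation of ATF4, a transcription factor that turns on aminoacyl-tRNA synthetases, amino acid transporters and serine and folate enzymes. Myc drives genes of ribosome assembly, and E2F factors drive the genes of DNA replication as cells enter S phase. BCR/ABL replaces the growth signal of interleukin 3 in 32D cells and keeps STAT5 and ERK signalling on.

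The median signal of the 12 vector arrays lay between 11 and 15, and 0.866% to 3.4% of probe sets were listed at 0. Correlations between arrays of a group ran from 0.9885 to 0.9921, and the 3' to 5' ratios of the control probe sets from 0.788 to 0.88 (Gapdh) and from 1.19 to 1.28 (actin). The Gapdh ratio was 0.788 to 0.798 in the 12 h arrays, against 0.807 to 0.83 in the 6 h arrays, so that these groups did not overlap, and its part in the results was not tested. No array stood apart, and none was a copy of another. Of 13 tested myeloid progenitor markers, Ptprc (CD45) averaged 1540 at 12 h and 1580 at 6 h, and Csf2rb, the common beta chain of the interleukin 3 receptor, 1290 at 12 h and 1420 at 6 h. Kit averaged 7.33 at 12 h and 13 at 6 h, Mpo 12.7 and 15, and Elane 4.33 and 7. These values are near the median signal of 14 or under it, so Kit, Mpo and Elane were not clearly seen. Of the 13 markers, 4 had a mean signal under 14 at 12 h and 3 did at 6 h, and the others did not. Esr1, part of which the fusions carry, had signals of 21, 14 and 21 at 12 h, against 25, 12 and 17 at 6 h. The lymphoid list had 0 of 7 tested markers called and a summed signal of 445 to 451 at 12 h, against 411 to 440 at 6 h. Among 9 fibroblast markers likewise 0 were called, and the sum was 4513 to 4700 at 12 h, against 4507 to 4543 at 6 h, nearly all of it Vim. For 4 other lists every 12 h sum lay below every 6 h sum, the monocyte list among them. The erythroid and megakaryocyte markers summed to 3081 to 3097 at 12 h, against 4217 to 4502 at 6 h, with 1 of 9 called lower. Mast cell and basophil markers summed to 2913 to 3120 at 12 h, against 3576 to 3863 at 6 h, with 1 of 7 lower, and myeloid progenitor markers to 6908 to 6966 at 12 h, against 7439 to 7780 at 6 h, with 2 of 13 lower. A sum is weighted towards the members with the highest signals, so these sums do not show that a list fell as a whole. The part of these cell types in the results was not tested. In bulk RNA, fewer cells of a type and less RNA per cell cannot be told apart.

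Between 12 h and 6 h, 642 of 12800 genes were higher at 12 h and 518 were lower, by limma's moderated test on log2(signal + 3) at an adjusted p under 0.05. These are 5.02% and 4.05% of the genes tested. Most changes were small: 10 genes were higher and 40 were lower by 1 or more on the log2 scale. Over probe sets the counts were 981 higher and 889 lower, a share of 52.5% higher. Centring each array on its median moved the median change of all probe sets to 0.096, against -0.025 as deposited, and the counts became 409 higher and 123 lower, a share of 76.9% higher. The medians are whole numbers, so this centring moved the vector arrays by steps, from -0.08 to 0.28 on the log2 scale, with differences inside groups. Over genes it left 260 rises and 70 falls, and counts by it are given below beside those as deposited.

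Much of the later change was in place by 9 h. At 9 h against 6 h 1107 genes differed, which is 8.65% of those tested. At 12 h against 9 h 5 genes did, which is 0.0391%. An unadjusted p under 0.05 was found for 673 of 12800 genes (limma), about as many as chance alone would give at that threshold. The 5 called genes are named here after their values were seen. Pi16, Cirbp and Egln3 were higher at 12 h by 0.62, 0.60 and 0.47 on the log2 scale. Vwa5a and Lgals3 were lower by 0.39 and 0.84 (adjusted p of the 5 genes 0.0369 to 0.0482, limma). Cirbp encodes an RNA-binding protein induced by cold, and Egln3 a prolyl hydroxylase that acts on hypoxia-inducible factors. The Cirbp signal was 215, 235 and 192 at 0 h, 115, 99 and 116 at 6 h, 93, 90 and 95 at 9 h, and 144, 137 and 144 at 12 h. Its 12 h arrays lay above all 6 h and 9 h arrays and below all 0 h arrays.

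**Figure D1:**
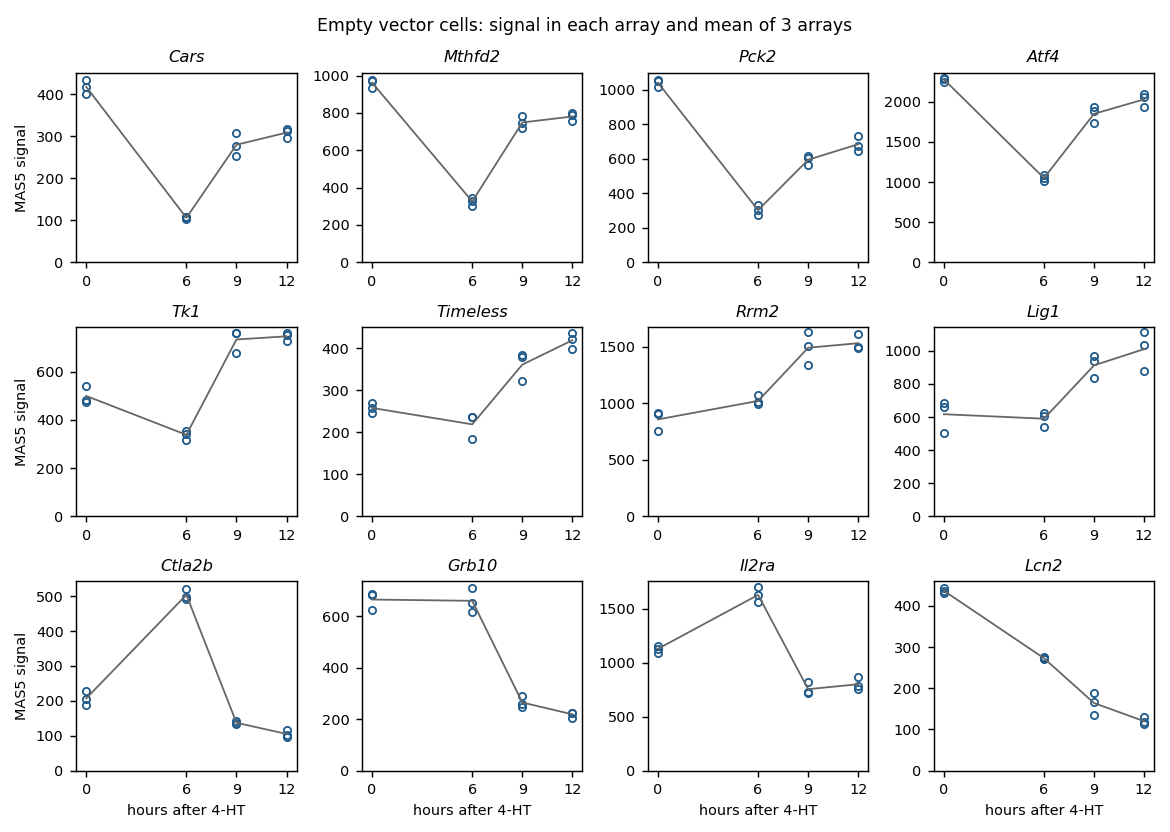
MAS5 signal (vertical axis, from 0) against hours after 4-HT for 12 named genes in empty vector cells. Open circles are single arrays and lines join the means of 3 arrays. Cars, Mthfd2, Pck2 and Atf4 dip at 6 h, Tk1, Timeless, Rrm2 and Lig1 are high at 9 and 12 h, and Grb10 and Lcn2 are low at 9 and 12 h.

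Among genes with a mean signal of at least 50 at 6 h or 12 h, the highest rises were in the metabolic genes Cars, Mthfd2 and Pck2. The signal of Cars, the cysteinyl-tRNA synthetase, was 401, 418 and 434 at 0 h, 104, 107 and 107 at 6 h, 309, 254 and 278 at 9 h, and 312, 297 and 317 at 12 h. Every 12 h array lay above every 6 h array and below every 0 h array. The change of 12 h against 6 h was 1.52 ± 0.10 on the log2 scale (SE, adjusted p = 5.68e-15), or 2.86-fold. Mthfd2, a mitochondrial folate enzyme, had 973, 934 and 979 at 0 h, 331, 303 and 344 at 6 h, 783, 721 and 744 at 9 h, and 755, 790 and 798 at 12 h, with a change of 1.25 ± 0.08 (adjusted p = 6.69e-16). For Pck2, mitochondrial phosphoenolpyruvate carboxykinase, signals were 1048, 1018 and 1056 at 0 h, 333, 273 and 301 at 6 h, 602, 563 and 618 at 9 h, and 675, 645 and 732 at 12 h. It rose by 1.17 ± 0.08 (adjusted p = 6.06e-14), and no 12 h array reached the 0 h range. The other genes among the 12 highest rises with a mean signal of at least 50 at 6 h or 12 h were Tk1 (1.14), Nuf2 (1.13), Ankrd37 (1.11), Glrp1 (1.11), Tex9 (0.97), Rnpep (0.96), Sting1 (0.96), Palm (0.96) and Atf4 (0.95). Nuf2 is a kinetochore protein and Sting1 an adaptor that senses cyclic dinucleotides. Tex9 was not called without replicate 1 at 6 h (0.73, adjusted p = 0.0742). The other tested probe set of Sting1 was not called (0.32 ± 0.14, adjusted p = 0.216, limma). Nor were those of Tex9 (-0.05 and 1.02), which had mean signals under 14. Other probe sets of Mthfd2 (1.22), Pck2 (1.41), Palm (0.75) and Atf4 (0.95) were called higher.

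Among genes with a mean signal of at least 50 at 6 h or 12 h, the largest fall was in Ctla2b, related to the propeptide of cathepsins. Its signal was 189, 204 and 228 at 0 h, 491, 521 and 499 at 6 h, 133, 136 and 141 at 9 h, and 103, 116 and 96 at 12 h. The change of 12 h against 6 h was -2.23 ± 0.14 on the log2 scale (adjusted p = 1e-15). Ctla2a, a close paralog whose probe sets may share signal with it, had a change of -1.47 ± 0.18 (adjusted p = 1.81e-07). Grb10, an adaptor that binds activated receptor kinases, had 624, 685 and 688 at 0 h, 618, 711 and 654 at 6 h, 246, 290 and 259 at 9 h, and 226, 225 and 205 at 12 h. The 0 h and 6 h arrays of Grb10 overlapped, and all 9 h and 12 h arrays lay far below them. Its change was -1.58 ± 0.09 (adjusted p = 6.09e-17). Fgl2 (-1.56), Itgb3 (-1.45), Clec4d (-1.45), Map1lc3a (-1.41), Cd69 (-1.39), Tspoap1 (-1.36), Tnfrsf9 (-1.34), Igf2os (-1.32) and Avil (-1.26) completed the 12 lowest of these genes. Cd69 and Tnfrsf9 encode surface proteins of activated leukocytes, and Clec4d a C-type lectin receptor. Map1lc3a (adjusted p = 0.0327) lost its call without the filter and with 1 as the added constant, and Itgb3 (adjusted p = 0.0151) with 1 as the added constant. The call of Map1lc3a was also lost without any 1 of the compared arrays (adjusted p of 0.0509 to 0.116), and that of Itgb3 without replicate 2 at 12 h (0.0788) or replicate 3 at 6 h (0.0572). With median centring neither was called (0.0906 for Map1lc3a and 0.0625 for Itgb3).

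The 1160 called genes were sorted by what they had done before 6 h. At 6 h against 0 h, 1073 genes were higher, 8.38% of those tested, and 1536 lower, 12% of them. At 12 h against 0 h, 984 genes were higher (7.69%) and 1246 lower (9.73%). A gene was said to have moved back where its 6 h change and its later change were both called with opposite signs, to have gone on where both were called with one sign, and to be late where 12 h differed from both 6 h and 0 h in one direction and 6 h did not differ from 0 h. The comparisons of 6 h with 0 h and of 12 h with 6 h share the 6 h arrays, so these counts describe and do not test a return. The later change minus the earlier one was tested as a contrast of its own, and 1848 genes (14.4%) passed.

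Of the 1160 genes, 577 had moved back: 364 rose after an early fall and 213 fell after an early rise. They are 23.7% of the early falls and 19.9% of the early rises. Most early changes were not called in either direction between 12 h and 6 h (1118 of 1536 falls, 838 of 1073 rises). At 12 h, 773 of the early falls (50.3%) still differed from 0 h in the same direction, and so did 588 of the early rises (54.8%). The percent of the early log2 change that had been regained had a median of 71.4 at 9 h and 83.2 at 12 h for the rising genes, and of 66.9 at 9 h and 88.7 at 12 h for the falling ones. These genes were chosen by changes that use the 6 h arrays, as does the percent, so part of this return is built in by the choice. Among the genes that moved back, 89 rising and 47 falling ones still differed from 0 h on the side of the early change. With median centring 173 genes had moved back in place of 577.

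A smaller set went on in the direction of the early change: 22 genes rose further and 54 fell further. Late changes numbered 137 rises and 163 falls. The test of the later minus the earlier change passed in 46 of the 137 and 52 of the 163, so for the others the later change was not shown to differ from the earlier one. Without replicate 1 at 12 h, the late genes numbered 189 in place of 300, and with median centring 60. The remaining 119 rises and 88 falls differed from 0 h at neither 6 h nor 12 h.

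**Figure D2:**
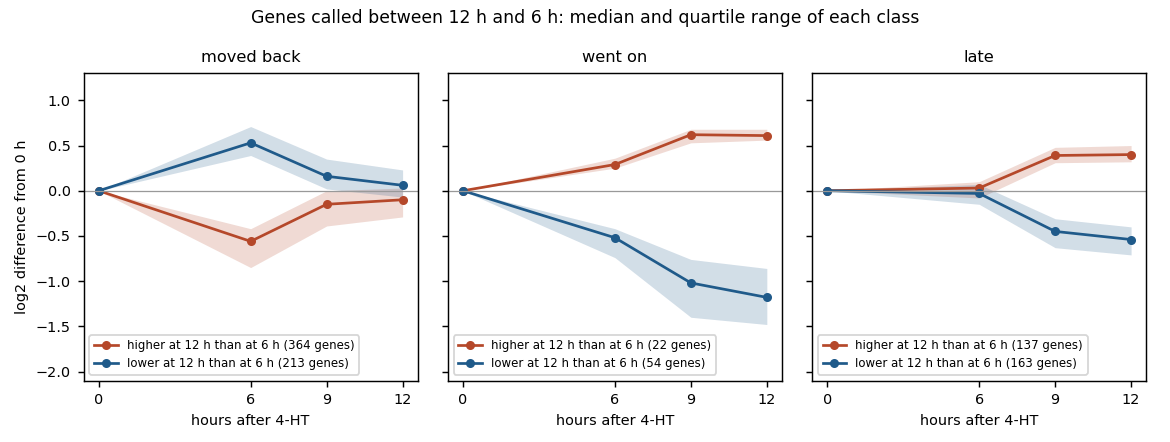
Log2 difference from 0 h (vertical axis) against hours after 4-HT for genes called between 12 h and 6 h, by class. Lines are medians over genes and bands run between the quartiles. Genes that moved back and rose have a median of -0.56 at 6 h, -0.15 at 9 h and -0.1 at 12 h, and late genes that rose have 0.03, 0.39 and 0.4; the 6 h arrays enter both the sorting and the plotted values.

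Lists of genes of known function were counted next, with the median change of all 12800 genes at -0.01. All lists were assembled with results of these data known.

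**Figure D3:**
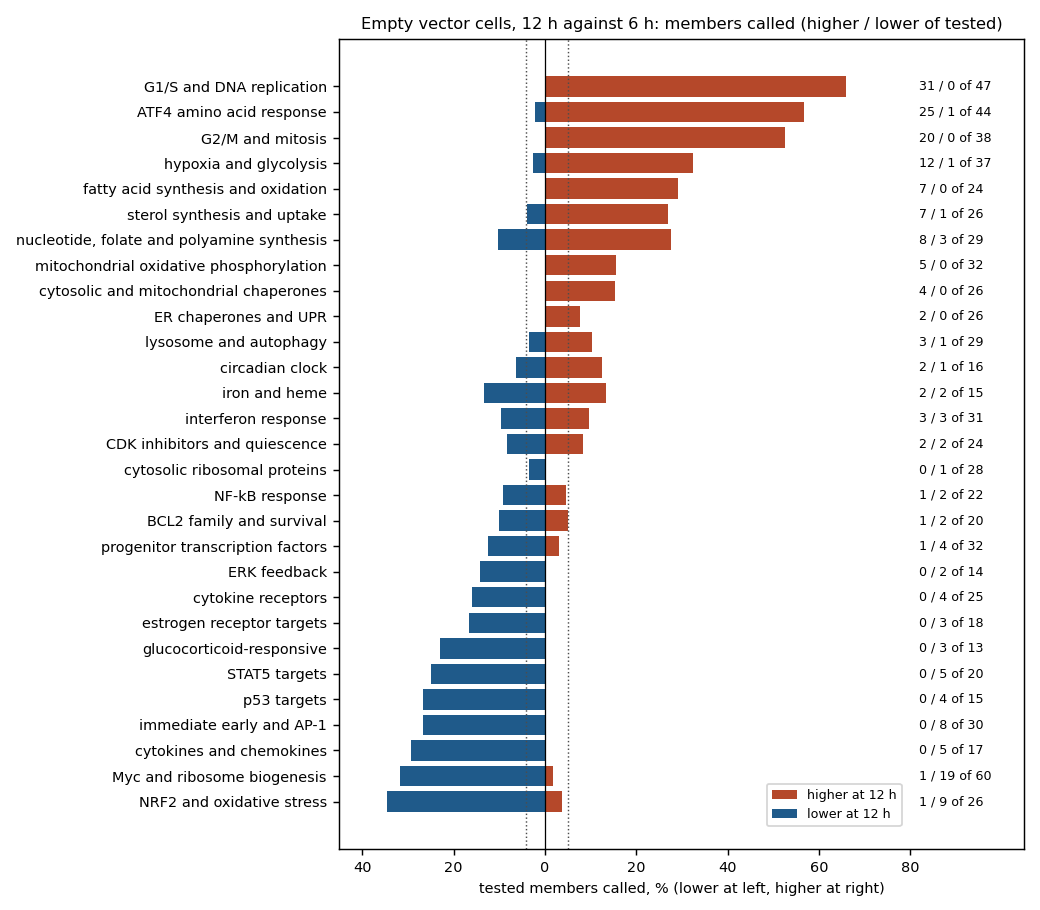
Percent of the tested members of each list called higher (right) or lower (left) at 12 h than at 6 h in empty vector cells, with the counts at the right. Dotted lines mark 5.02% and 4.05% of all genes. The cell type marker lists are not plotted. Of the lists shown, DNA replication, ATF4 and mitosis genes have the highest shares of rises, and NRF2 and Myc genes the highest shares of falls.

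Most genes of the ATF4 amino acid response had fallen by 6 h, and many of them had partly returned by 12 h. Of 44 tested members, 25 were higher and 1 lower at 12 h than at 6 h, with a median change of 0.46. At 6 h against 0 h, 36 had been lower and 0 higher, with a median of -0.81, and at 12 h 26 were still lower than at 0 h. All 25 rises belong to genes that moved back, and 21 rises were left with median centring. Atf4 itself had 2286, 2252 and 2292 at 0 h, 1054, 1084 and 1019 at 6 h, 1736, 1887 and 1929 at 9 h, and 2093, 1939 and 2062 at 12 h. The 12 h arrays lay between the other 2 groups, with a change of 0.95 ± 0.07 against 6 h (adjusted p = 1.55e-12), and 85.2% of the early log2 fall was regained.

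Most aminoacyl-tRNA synthetases placed in this list, which load amino acids on tRNA, rose. Besides Cars, the members Iars (0.86), Nars (0.77), Aars (0.76), Sars (0.67), Mars1 (0.62), Lars (0.60), Yars (0.57), Gars (0.49), Tars (0.47) and Eprs (0.35) were called, although Eprs lost its call with median centring (adjusted p = 0.162). The exception among the listed ones was Wars (0.17 ± 0.10, adjusted p = 0.4). Nars had 2020, 1939 and 2102 at 0 h, 968, 955 and 957 at 6 h, 1427, 1537 and 1585 at 9 h, and 1700, 1555 and 1673 at 12 h. Some serine and glycine enzymes rose as well, with Shmt2 at 0.76 ± 0.09 (adjusted p = 4.18e-08) and Psat1 at 0.62 ± 0.07 (adjusted p = 5.23e-08). Phgdh, the first enzyme of serine synthesis, changed by 0.08 ± 0.12 (adjusted p = 0.848). Psph (0.05) and, outside this list, Shmt1 (-0.04) were not called either. Trib3, a pseudokinase that restrains ATF4, had the deepest early fall: 528, 621 and 621 at 0 h, 123, 98 and 90 at 6 h, 172, 193 and 226 at 9 h, and 209, 188 and 198 at 12 h. It regained 37.3% of that fall.

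Other members stayed low. Ddit3 (CHOP), a stress transcription factor, had 341, 374 and 372 at 0 h, 149, 134 and 122 at 6 h, 168, 137 and 145 at 9 h, and 159, 150 and 154 at 12 h, a later change of 0.19 ± 0.16 (adjusted p = 0.64). The signal of Ppp1r15a, which directs dephosphorylation of eIF2α, was 273, 264 and 304 at 12 h, against 274, 272 and 264 at 6 h. Atf5 went on falling, with 340, 374 and 382 at 0 h, 187, 214 and 203 at 6 h, 182, 150 and 125 at 9 h, and 135, 119 and 157 at 12 h (-0.55 ± 0.15, adjusted p = 0.0159). Its call was lost without replicate 1 or 2 at 12 h or replicate 2 or 3 at 6 h, with an adjusted p of 0.0526 to 0.117, and with median centring (0.253).

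Promoter sequences show where the members carry the C/EBP-ATF response element. Its letters TGATGNAA were searched on both strands in windows of 300 bases, 250 before and 50 after each RefSeq start site (GRCm38.p6). Windows were found for 35 of the 44 members, or 79.5%, which is under 80%, so a share over the list is void and none is given. Over the 10366 tested genes with a window, 2.89% held the letters. The stretches of 60 bases below end before the start site and show, in capitals, the match in the 5 members with the highest rises among those with a match before the start site.
Pck2 at chr14:55540137-55540196, plus strand: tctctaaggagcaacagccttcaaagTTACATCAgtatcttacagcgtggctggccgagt
Aars at chr8:111033704-111033763, plus strand: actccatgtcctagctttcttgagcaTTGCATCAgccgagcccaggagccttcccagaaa
Asns at chr6:7693210-7693269, minus strand: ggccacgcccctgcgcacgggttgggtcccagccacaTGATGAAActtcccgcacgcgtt
Nupr1 at chr7:126625547-126625606, minus strand: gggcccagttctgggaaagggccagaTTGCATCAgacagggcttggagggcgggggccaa
Gars at chr6:55037941-55038000, plus strand: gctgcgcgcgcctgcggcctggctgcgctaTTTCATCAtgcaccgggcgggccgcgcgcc
Asns, asparagine synthetase, had 1929, 1885 and 1926 at 0 h, 901, 900 and 837 at 6 h, 1152, 1159 and 1164 at 9 h, and 1367, 1359 and 1446 at 12 h, a rise of 0.66 ± 0.06 (adjusted p = 1.24e-10). Nupr1, a small chromatin protein of the stress response, had 170, 173 and 175 at 0 h, 59, 36 and 41 at 6 h, 75, 80 and 82 at 9 h, and 73, 58 and 74 at 12 h, a rise of 0.58 (adjusted p = 0.000599). A match is a description of the letters alone.

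Most listed genes of DNA replication rose, with no member called lower at 6 h than at 0 h. Of 47 tested members of the G1/S list, 31 were higher and 0 lower at 12 h, with a median of 0.40, and 22 of the 31 were late and 6 had gone on. With median centring 19 rises were left. The later minus the earlier change passed its own test in 11 of the 22 late members. Timeless, a replication fork protein outside the list, had 246, 269 and 258 at 0 h, 184, 236 and 237 at 6 h, 323, 383 and 378 at 9 h, and 398, 437 and 422 at 12 h. All 12 h arrays lay above all others, and the rise was 0.94 ± 0.10 (adjusted p = 1.32e-08). Lig1, DNA ligase 1, had 687, 503 and 661 at 0 h, 539, 625 and 606 at 6 h, 938, 833 and 966 at 9 h, and 1111, 1034 and 876 at 12 h (0.76 ± 0.10, adjusted p = 4.08e-07). Its 0 h and 6 h arrays overlapped. The replication factor C subunit Rfc2 (0.79), the polymerase subunits Pole (0.62), Pola2 (0.58) and Prim1 (0.53), the licensing factor Cdt1 (0.49) and Cdc45 (0.44), part of the replicative helicase, also rose late.

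Members that went on include Rrm2, the ribonucleotide reductase subunit that is limiting in S phase. Its signal was 750, 917 and 905 at 0 h, 1069, 1007 and 990 at 6 h, 1338, 1626 and 1502 at 9 h, and 1485, 1492 and 1615 at 12 h (0.58 ± 0.09, adjusted p = 1.37e-05). The helicase components Mcm2 (0.42) and Mcm10 (0.40) also went on rising. So did, outside the list, the histone chaperone Nasp (0.57) and the transcription factor Mybl2 (0.43). With median centring Mybl2 (adjusted p = 0.0882) and Mcm10 (0.103) were not called. Tk1, thymidine kinase 1, is also outside the list. Its signal was 475, 542 and 481 at 0 h, 355, 340 and 318 at 6 h, 677, 761 and 760 at 9 h, and 761, 725 and 753 at 12 h, so that it fell first and then passed the 0 h level. Pcna changed by 0.07 ± 0.15 (adjusted p = 0.902) and Ung, a uracil glycosylase, by -0.21 ± 0.18 (adjusted p = 0.628). Promoter windows were found for 39 of the 47 members, and 12 of them, or 30.8%, held the letters TTTNGCGC of an E2F site on either strand, against 2.74% of 10366 tested genes with a window. In the stretches before the start site of 3 members that rose, the capitals mark those letters; in Mcm5 a pair of matches on opposite strands overlaps.
Pola1 at chrX:93632260-93632319, minus strand: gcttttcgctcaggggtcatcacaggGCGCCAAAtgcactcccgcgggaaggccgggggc
Rfc3 at chr5:151651209-151651268, minus strand: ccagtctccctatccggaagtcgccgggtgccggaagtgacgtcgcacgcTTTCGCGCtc
Mcm5 at chr8:75109330-75109389, plus strand: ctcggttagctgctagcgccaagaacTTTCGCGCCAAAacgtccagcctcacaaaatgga
Pola1 encodes the catalytic subunit of polymerase alpha and rose by 0.44, Rfc3 rose by 0.46, and Mcm5, a subunit of the helicase, by 0.26. None of these 3 rises was called with median centring (adjusted p of 0.102, 0.128 and 0.217).

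Mitosis genes were among the rises too. Of 38 members of the G2/M list, 20 were higher and 0 lower, with a median of 0.27, and 7 of them had moved back after an early fall. Espl1, the separase that opens cohesin, had 242, 254 and 204 at 0 h, 137, 183 and 153 at 6 h, 220, 254 and 217 at 9 h, and 237, 221 and 225 at 12 h (0.53 ± 0.12, adjusted p = 0.00194). Racgap1 (0.50), Bub1 (0.48), Hmmr (0.44), Nusap1 (0.42) and Ccnb2 (0.38) also rose. Leaving out any 1 of the 6 compared arrays brought the count of mitosis rises to between 11 and 13, and median centring to 3. Espl1 (adjusted p = 0.0615), Bub1 (0.0811) and Nusap1 (0.057) were among those not called with this centring.

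Some genes of ribosome assembly were lower at 12 h, and most were not called. Of 60 members of the Myc and ribosome biogenesis list, 19 were lower and 1 higher at 12 h, with a median of -0.17, after 46 had been higher and 2 lower at 6 h than at 0 h, with a median of 0.58. At 12 h 38 members were still higher than at 0 h. The count of falls was 12 without replicate 2 at 12 h and 2 with median centring, where the median was -0.05. Polr1b, a subunit of RNA polymerase I, had 138, 146 and 139 at 0 h, a mean of 281 ± 19.3 (SD, n = 3) at 6 h, 160, 170 and 144 at 9 h, and 150, 134 and 172 at 12 h. Its 12 h arrays overlapped the 0 h arrays, and the change was -0.88 ± 0.17 (adjusted p = 0.000521, or 0.0737 with median centring). The nucleolar proteins Rrp9 (-0.59), Nop16 (-0.55), Gnl3 (-0.51) and Dkc1 (-0.42) and the mitochondrial import protein Timm10 (-0.64) fell to between the 6 h and 0 h levels, and none of these 5 was called with median centring (adjusted p of 0.068 to 0.424). Ddx21, a nucleolar helicase, had 217, 202 and 252 at 0 h, 549, 484 and 517 at 6 h, 442, 407 and 435 at 9 h, and 474, 424 and 470 at 12 h, and its later change of -0.18 ± 0.09 was not called (adjusted p = 0.268).

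Myc itself passed below its starting level. Its signal was 791, 814 and 953 at 0 h, 978, 1049 and 1093 at 6 h, 616, 750 and 697 at 9 h, and 594, 560 and 609 at 12 h. Every 12 h array lay below every 0 h array, and the change was -0.82 ± 0.09 against 6 h (adjusted p = 2.52e-08) and -0.53 against 0 h (adjusted p = 3.94e-05). The 1 rise in the list was Mxi1 (0.38), a Myc antagonist that had fallen early. Mxd4 (-0.88), another antagonist, went on falling. The promoter windows of 16 of 53 members, or 30.2%, held the E-box letters CACGTG, against 11.3% of tested genes with a window. Of the 16 members with a window that had moved back, 6 held them.

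**Figure D4:**
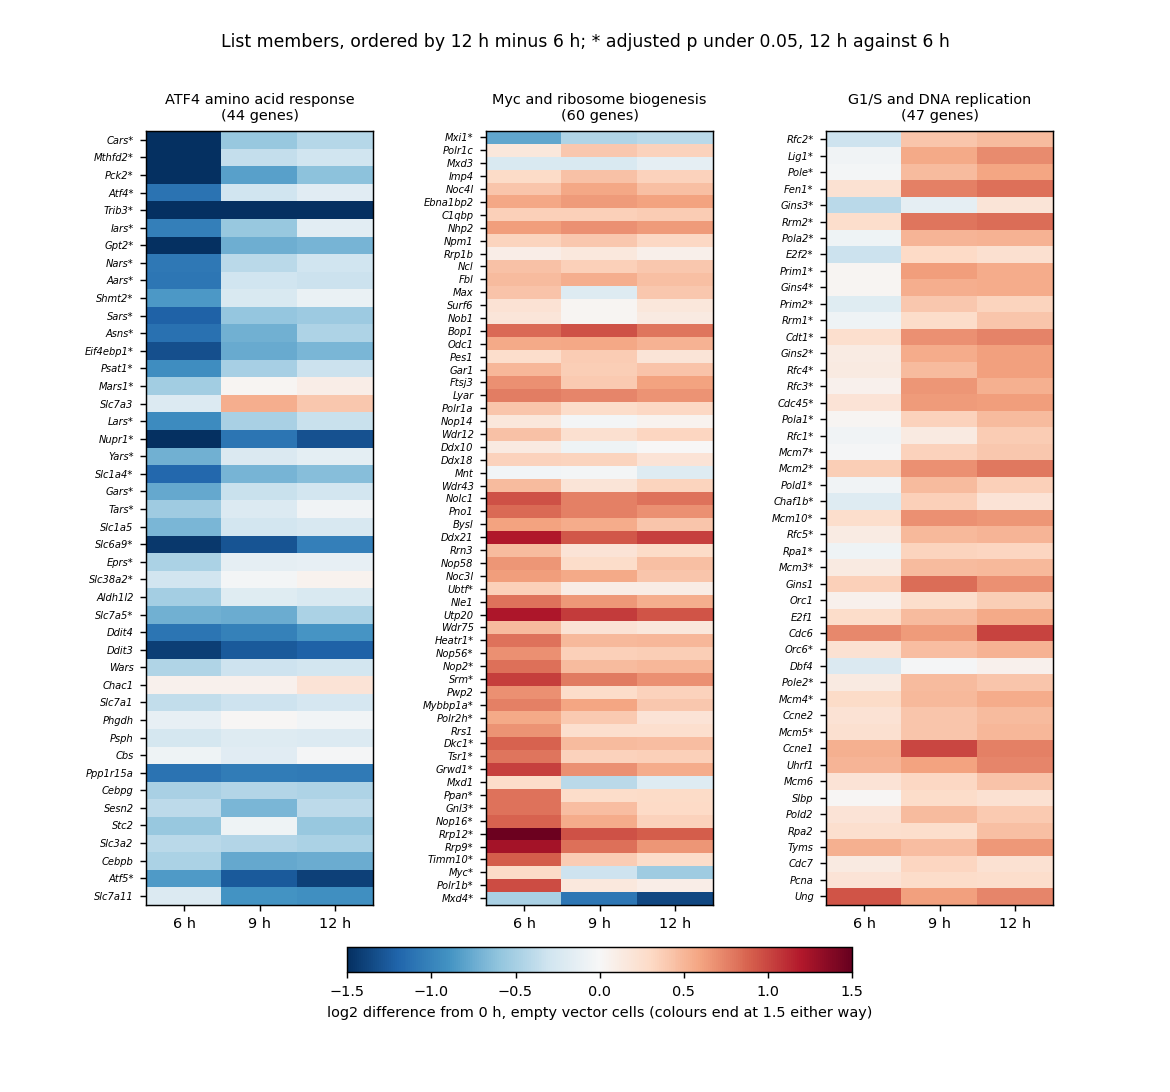
Log2 difference from 0 h in empty vector cells at 6, 9 and 12 h (columns) for the tested members of 3 lists (rows, ordered by 12 h minus 6 h), with blue below and red above 0 h. Asterisks mark members with an adjusted p under 0.05 between 12 h and 6 h: 26 of 44 ATF4 genes, 20 of 60 Myc genes and 31 of 47 replication genes.

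Some genes of purine and polyamine synthesis fell after an early rise. Srm, spermidine synthase, had 1179, 1172 and 1152 at 0 h, 2477, 2437 and 2289 at 6 h, 1913, 2038 and 2067 at 9 h, and 2084, 1763 and 1841 at 12 h (-0.34 ± 0.07, adjusted p = 0.00144). The purine enzymes Adsl (-0.23, adjusted p = 0.0242) and Ppat (-0.20, adjusted p = 0.0389) also fell. In the same list 8 of 29 members rose, among them Rrm1 (0.50), Dut (0.49) and Paics (0.43). The count of falls in the list was 3, and it was 1 without replicate 2 at 12 h or without replicate 3 at 6 h. Adsl lost its call in both of these cases (adjusted p of 0.258 and 0.139), and Ppat without any 1 of the compared arrays (0.0685 to 0.145). With median centring 0 falls and 6 rises were left, and Srm (adjusted p = 0.564) and Dut (0.115) were not called.

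Some hypoxia and glycolysis genes returned in part. Of 37 tested members, 12 were higher and 1 lower at 12 h, with a median of 0.22, and at 6 h 22 had been lower than at 0 h, with a median of -0.51. All 12 rises were of genes that moved back. Bnip3, a mitophagy receptor, had 1863, 1991 and 2114 at 0 h, 892, 978 and 804 at 6 h, 1093, 1298 and 1448 at 9 h, and 1614, 1437 and 1523 at 12 h (0.78 ± 0.09, adjusted p = 3.45e-08). The 12 h arrays lay above the 6 h arrays and below the 0 h arrays. Egln3 had 1904, 2158 and 2094 at 0 h, 1014, 964 and 930 at 6 h, 822, 1015 and 1198 at 9 h, and 1323, 1368 and 1474 at 12 h, so that its return came after 9 h. Slc2a1 (0.35), the glucose transporter GLUT1, Tpi1 (0.34) and Pfkp (0.27), both of glycolysis, and Pdk1 (0.43), which inhibits pyruvate dehydrogenase, rose less. The exception was Car12, a carbonic anhydrase, a late fall of -0.53 that was not called without replicate 1 or 3 at 12 h or replicate 2 at 6 h (adjusted p of 0.0662 to 0.161). Without replicate 3 at 12 h the count of rises was 7, and with median centring 6. Slc2a1, Tpi1, Pfkp, Pdk1 and Car12 were not called with this centring (adjusted p of 0.0565 to 0.419). The core letters ACGTG stood in the windows of 26 of 35 members, or 74.3%, against 28.5% of tested genes with a window. Of the 11 members with a window that had moved back, 7 held them. Other elements were searched in other lists. The sterol response element stood in 1 of 21 sterol members (1.48% of tested genes) and the cyclic AMP response element in 2 of 24 immediate early members (3.36%). The heat shock element core stood in 8 of 22 cytosolic and mitochondrial chaperones (7.16%).

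Some lipid synthesis genes rose. In the sterol list 7 of 26 were higher and 1 lower, with 15 lower at 6 h than at 0 h, and in the fatty acid list 7 of 24 were higher and 0 lower. With median centring 6 sterol rises and 2 fatty acid rises were left, and Fads1, Hadha and Hadhb, given below, were not called (adjusted p of 0.0682 to 0.156). Srebf1, a lead regulator of lipid synthesis, had 576, 567 and 420 at 0 h, 345, 308 and 364 at 6 h, 467, 440 and 469 at 9 h, and 564, 503 and 577 at 12 h (0.69 ± 0.11, adjusted p = 1.28e-05). Its 12 h and 0 h arrays overlapped. Fdps, which makes farnesyl diphosphate, rose by 0.46, the desaturases Fads2 and Fads1 by 0.71 and 0.48, and the oxidation subunits Hadha and Hadhb late by 0.26 and 0.29. Hmgcs1, at the head of sterol synthesis, had 916, 850 and 850 at 12 h, against 775, 748 and 781 at 6 h, and was not called (0.18 ± 0.09, adjusted p = 0.321). Of 32 oxidative phosphorylation genes, 5 rose and 0 fell, with Atp5g1 at 0.39, and leaving out any 1 of the compared arrays left 1 to 3. Atp5g1 itself was not called without replicate 3 at 12 h or replicate 2 or 3 at 6 h (adjusted p of 0.0538 to 0.074), and median centring left 1 rise of the list, which was not Atp5g1 (0.0513).

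Some immediate early genes fell. Of 30 immediate early and AP-1 genes, 8 were lower and 0 higher, with a median of -0.36; 5 were late and 3 had gone on. The count of falls was 5 without replicate 2 at 12 h and without any 1 of the 6 h arrays, and 1 with median centring. Fosl2, an AP-1 subunit, had 161, 173 and 161 at 0 h, 222, 177 and 198 at 6 h, 113, 103 and 117 at 9 h, and 94, 100 and 98 at 12 h (2.01-fold lower at 12 h than at 6 h, adjusted p = 3.44e-09). All 12 h arrays lay below all others. The other tested probe set of Fosl2 averaged 62 at 6 h and 56.7 at 12 h and was not called (-0.14 ± 0.19, adjusted p = 0.819, limma). Jund (-0.70), Srf (-0.57), Ier5 (-0.56) and Junb (-0.54) fell, but not with median centring (adjusted p of 0.0718 to 0.218), while Fos (-0.30, adjusted p = 0.574) and Egr1, at signals of 8, 8 and 11 at 12 h against 17, 11 and 10 at 6 h, were not called.

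STAT5 targets had 5 falls and 0 rises among 20 members. Il2ra, the high-affinity interleukin 2 receptor chain, had 1154, 1131 and 1093 at 0 h, 1563, 1705 and 1629 at 6 h, 715, 725 and 824 at 9 h, and 780, 754 and 868 at 12 h. All 9 h and 12 h arrays lay below the 0 h range, and the change of 12 h against 6 h was -1.03 ± 0.11 (adjusted p = 9.12e-09). Osm (-0.78), the cytokine oncostatin M, and Socs1 (-0.43) and Cish (-0.30), which feed back on STAT signalling, were late falls. The 5 falls became 2 without replicate 2 at 12 h or replicate 1 at 6 h, and 3 without replicate 1 at 12 h, and 2 with median centring, where Socs1 (adjusted p = 0.447) and Cish (0.74) were not called. Phlda1 (-0.80) and Spry2 (-0.50), induced by ERK signalling, were the falls among 14 ERK feedback genes. Socs1 kept its call only without replicate 3 at 6 h, and Spry2 only without replicate 3 at 12 h or replicate 1 at 6 h, among the fits with 1 compared array left out. Spry2 was not called with median centring (adjusted p = 0.4).

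Several oxidative stress genes fell. Of 26 NRF2 genes, 9 were lower and 1 was higher, and the falls numbered 5 without replicate 2 at 12 h or replicate 1 at 6 h, and 3 with median centring. Hmox1, heme oxygenase 1, went on: 776, 893 and 952 at 0 h, 488, 506 and 496 at 6 h, 257, 313 and 244 at 9 h, and a mean of 311 ± 29.1 (SD, n = 3) at 12 h (-0.68 ± 0.10, adjusted p = 6.8e-06). Its 9 h and 12 h arrays overlapped and lay below all earlier ones. The glutathione enzyme Gclm (-0.64) and Pgd (-0.80), of the pentose phosphate pathway, fell after an early rise. The exception was Sod2, a late rise of 0.25 (adjusted p = 0.0481), called without replicate 2 at 12 h but not without any other 1 of the compared arrays (0.0892 to 0.199) and not with median centring (0.174).

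Several leukocyte genes were among the larger falls. Fcgr3, an Fc receptor, had 310, 248 and 282 at 0 h, 221, 339 and 308 at 6 h, 142, 155 and 135 at 9 h, and 116, 119 and 126 at 12 h (-1.22 ± 0.10, adjusted p = 2.16e-11). The 0 h and 6 h arrays overlapped, and all later arrays lay below them. Lcn2, lipocalin 2, had 432, 436 and 443 at 0 h, 272, 273 and 275 at 6 h, 188, 167 and 136 at 9 h, and 113, 119 and 129 at 12 h (-1.17 ± 0.14, adjusted p = 1.55e-07). Lgals3, galectin 3, had 63, 86 and 84 at 0 h, 47, 41 and 51 at 6 h, 23, 31 and 25 at 9 h, and 19, 11 and 11 at 12 h, so that the last value is near the median signal of an array. Tgm2, transglutaminase 2, fell by 1.10, Cd52 by 1.15, Clec4e by 1.23 and Adam8 by 1.02. Of 12 neutrophil markers, 4 were lower (Fcgr3, Lcn2, Ltf and Cxcr2) and Padi4 was higher, with a summed signal of 2989 to 3093 at 12 h, against 2985 to 3206 at 6 h. In the monocyte list 2 of 13 were lower (Cd68 and Lgals3), with a sum of 905 to 980 at 12 h, against 1027 to 1047 at 6 h. Cd68 was not called without replicate 1 at 12 h or replicate 2 or 3 at 6 h (adjusted p of 0.0657 to 0.238), nor Ltf without any 1 of the compared arrays but replicate 2 at 12 h (0.0545 to 0.186). With median centring Ltf, Cxcr2, Padi4 and Cd68 were not called (0.0995 to 0.7). Their part in the falls of leukocyte genes was not tested.

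The 5 cytokine falls of 17 were Csf1 (-0.33), Ccl9 (-0.65), Ccl17 (-0.95), Ccl5 (-1.52) and Ccl6 (-1.32). Ccl5 had a mean signal under 50 at 6 h and at 12 h. Ccl6 had 8, 3 and 3 at 12 h, under the median signal of 14, against 27, 9 and 14 at 6 h. The other tested probe sets of Csf1 were not called (-0.33, -0.23 and 0.28). The inhibitor of NF-kB Nfkbia fell late by 0.74 ± 0.10 (adjusted p = 4.07e-07). Of 15 p53 targets 4 fell and 0 rose: Trp53inp1 (-0.75), Zmat3 (-0.62), Aen (-0.59) and Mdm2 (-0.30). Cebpa, which encodes the factor carried by the other lines' fusions, had 194, 198 and 179 at 0 h, 86, 74 and 66 at 6 h, 45, 43 and 45 at 9 h, and 44, 45 and 48 at 12 h. It fell by 0.68 ± 0.14 against 6 h (adjusted p = 0.00138), and every 12 h array lay below every 6 h array. Spi1, which encodes the myeloid factor PU.1, was lower by 0.31 ± 0.10 (adjusted p = 0.049), a call lost without any 1 of the compared arrays but replicate 3 at 12 h (0.0639 to 0.24). Myb and Gata2, which the title of the series names, changed by -0.17 ± 0.10 (adjusted p = 0.403) and -0.17 ± 0.08 (adjusted p = 0.278). Bcl2, the survival factor, fell late by 0.53 (adjusted p = 0.0023), with 402, 411 and 404 at 12 h, against 609, 576 and 582 at 6 h. Median centring left 3 cytokine falls and 1 p53 target fall. Among those not called with it were Csf1 (adjusted p = 0.593), Ccl17 (0.0551), Zmat3 (0.145), Aen (0.159), Mdm2 (0.724), Cebpa (0.159), Spi1 (0.637) and Bcl2 (0.221).

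Several other lists held few calls, or calls in both directions. Rises and falls numbered 2 and 2 among 24 CDK inhibitor and quiescence genes (1 and 0 with median centring). They were 2 and 2 among 15 iron and heme genes (0 and 2), and 1 and 2 among 22 NF-kB response genes (0 and 1). Clock genes had 2 and 1 among 16, and BCL2 family genes 1 and 2 among 20, with 0 of either left by this centring. The interferon list had 3 rises and 3 falls among 31 members, the lysosome list 3 and 1 among 29, and cytosolic ribosomal proteins 0 rises and 1 fall (Rpl12, -0.72) among 28. Of 26 ER chaperone genes 2 rose, Herpud1 (0.78) and Sec24d (0.36, not called without replicate 3 at 12 h or replicate 2 at 6 h), and of 26 cytosolic and mitochondrial chaperones 4 rose and 0 fell, with 1 or 2 rises left without either replicate 1, replicate 3 at 12 h or replicate 2 at 6 h. Without any 1 of the compared arrays the interferon rises were 0 or 1, and the lysosome rises were 1 without either replicate 1 and 0 without replicate 3 at 12 h. With median centring 1 interferon rise, 1 lysosome rise, 1 ER chaperone rise and 0 rises of the other chaperones were left. The interferon, lysosome and chaperone lists had 0 falls with it, and Rpl12 (adjusted p = 0.165) and Sec24d (0.123) were not called. The median change of the ribosomal proteins was -0.13 as deposited and 0.01 after quantile normalization. The interferon and lysosome medians of -0.06 and -0.03 became 0.07 and 0.09 after median centring. The glucocorticoid-responsive list had 0 rises and 3 falls (Nfkbia, Lcn2 and Tgm2) among 13 members, and 3 falls were left with median centring. Cytokine receptors had 0 rises and 4 falls among 25, and estrogen receptor targets 0 and 3 (Myc, Ltf and Bcl2) among 18. Of these, 2 and 1 falls were left with this centring. Progenitor transcription factors had 1 rise and 4 falls among 32, with 0 of either left.

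The same comparison in the other lines, on other arrays, shows how far the later change is shared. The spread of each probe set was estimated over all lines together, so calls in different lines are not independent. In K298E cells 5.71% of genes were higher and 4.9% lower at 12 h than at 6 h, in WT cells 8.74% and 6.47%, and in Δ(177-191) cells 9.7% and 8.62%. Of the 642 genes higher in vector cells, 290 were higher in K298E cells too (45.2% of the vector genes and 39.7% of the K298E genes), 443 in WT cells (69% and 39.6%) and 262 in Δ(177-191) cells (40.8% and 21.1%). Of the 518 lower genes, 233 were lower in K298E cells too (45% and 37.2%), 332 in WT cells (64.1% and 40.1%) and 211 in Δ(177-191) cells (40.7% and 19.1%). Genes called in opposite directions in the vector and another line numbered at most 63 in any of these.

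The difference between lines in the later change was tested directly. Vector cells differed from K298E cells in 111 genes (0.867% of those tested), from WT cells in 83 (0.648%) and from Δ(177-191) cells in 953 (7.45%). With median centring these were 2, 12 and 219 genes. In the ATF4 list the vector rise exceeded that of K298E cells in 8 of 44 members, that of WT cells in 15 and that of Δ(177-191) cells in 24, and 0 differed the other way in any of the 3. With median centring the numbers were 0, 3 and 13. In the hypoxia list the vector change was lower than that of K298E cells in 5 of 37 members and higher than that of WT cells in 9, or in 1 and 2 with median centring. In the replication list 0 of 47 members differed from K298E or WT cells, and vector cells had the larger rise in 14 against Δ(177-191) cells, or in 0 with median centring.

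Asns was one of the 8 ATF4 members. In K298E cells its signal was 1552, 1608 and 1637 at 0 h, 817, 770 and 762 at 6 h, 696, 679 and 692 at 9 h, and 717, 702 and 757 at 12 h. The later change was 0.66 in vector cells and -0.11 in K298E cells, a difference of 0.77 ± 0.09 on the log2 scale (adjusted p = 1.71e-07, or 0.065 with median centring). Slc7a5, a transporter of large neutral amino acids, had a vector change of 0.25 and a K298E change of -0.52, a difference of 0.77 ± 0.11 (adjusted p = 5.41e-05, or 0.125 with median centring). For Ndrg1, a hypoxia-induced gene, the change was smaller in vector cells, with 325, 285 and 352 in vector cells at 12 h, against 258, 264 and 224 at 6 h, while K298E cells had 455, 445 and 484 at 12 h, against 136, 132 and 163 at 6 h. The difference was -1.31 ± 0.15 (adjusted p = 1.71e-07, or 0.0256 with median centring). Grb10, the deep late fall of vector cells, averaged 217 in K298E cells at 12 h, against 301 at 6 h.

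**Figure D5:**
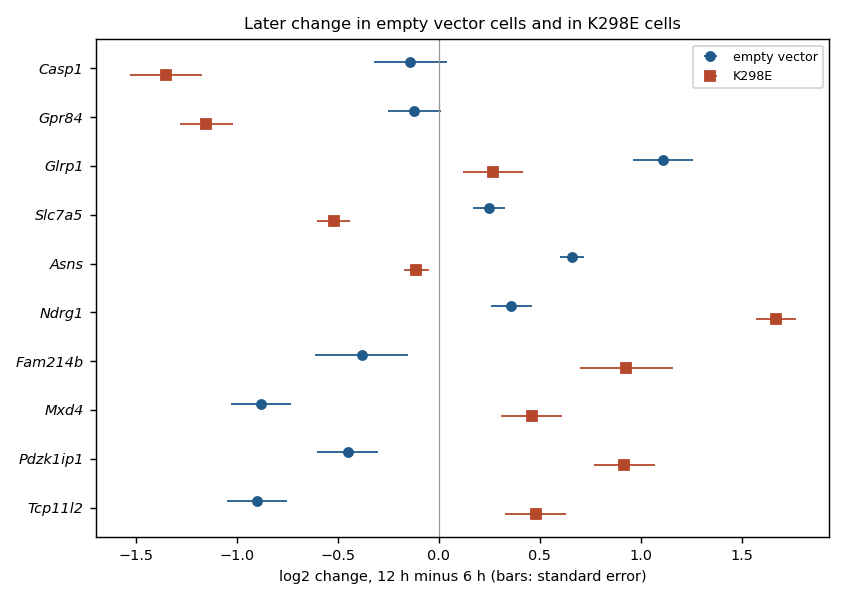
Log2 change of 12 h minus 6 h (horizontal axis, bars are standard errors) in empty vector cells (circles) and K298E cells (squares) for the 10 genes with the 5 highest and 5 lowest differences that passed the test and had a vector mean signal of at least 50 at 6 h or 12 h. Asns is at 0.66 in vector and -0.11 in K298E cells, and Ndrg1 at 0.36 and 1.67.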

How the data were processed

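Per the submitters' processing notes, the deposited values are MAS5 signal intensities, with no version given; the linear scale and whole numbers were checked on the values. RNA of 48 arrays (Affymetrix MOE430_2) was measured, 3 for each of 16 groups. No detection calls were used. Of 45101 probe sets, 64 controls were left out.

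A constant of 3, at percentile 20 of the signals, was added before taking log2, so changes of low genes are understated. Probe sets with a group mean above the median of all log2 values (4.09, a signal of 14) were kept: 27167, of which 22970 have 1 symbol, 642 several and 3555 none. A gene was represented by its probe set with the highest mean, which gave 12800 genes. Names come from the platform annotation, updated through RefSeq (GRCm38.p6), whose promoter windows were also used.

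Means of the 16 groups were fitted in limma 3.58.1 (R 4.3.3) with an intensity trend and 32 residual degrees of freedom, and p-values were adjusted over all tested probe sets (Benjamini-Hochberg), with a threshold of 0.05. The fit was tested on simulated data. Errors of log2 changes are standard errors. The percent regained is the later log2 change over the early one with its sign turned.

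The comparisons, the 36 gene lists (854 tested entries, 795 genes, 67 of them in several lists) and the named genes were chosen with earlier results of these data known. Named were the 12 highest and 12 lowest changes, the 6 largest each way of each class, the 5 highest and 5 lowest differences from K298E, up to 3 rises and 3 falls of each list (all with a vector mean signal of at least 50 at 6 h or 12 h), and fixed genes such as Myb, Gata2, Cebpa, Esr1, Myc and Lgals3; other list members are given by value. Same-numbered 12 h and 6 h arrays had deviations correlated at -0.01, -0.01 and 0.04, so the numbers do not pair the samples. Alternatives were other added constants, filters, scalings and designs, and leaving out each array. The number of arrays limits the precision.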

Additional observations from a re-analysis of the deposited data

Results flagged for a closer look

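The later change differed between vector cells and each other line by the test of the difference itself. Over 27167 probe sets, 184 passed against K298E cells, 136 against WT cells and 1506 against Δ(177-191) cells. With arrays centred on their medians 2, 23 and 338 passed. The K298E count was 113 without vector replicate 1 at 12 h and 107 without vector replicate 2 at 6 h, and the WT count was 90 without vector replicate 1 at 12 h.

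The vector change minus the K298E change was 0.84 for Glrp1, 0.77 for Asns, 0.77 for Slc7a5, 1.03 for Gpr84 and 1.21 for Casp1 on the log2 scale. It was -1.31 for Ndrg1, -1.32 for Fam214b, -1.34 for Mxd4, -1.37 for Pdzk1ip1 and -1.39 for Tcp11l2. With median centring the difference passed for Ndrg1 (adjusted p = 0.0256) and not for the other 9 (0.065 to 0.594). For Gpr84, K298E cells had 199, 185 and 116 at 12 h, against 356, 383 and 350 at 6 h, while vector cells had 65, 51 and 59 at 12 h, against 69, 63 and 58 at 6 h. Casp1 had 1, 2 and 4 in K298E cells at 12 h, against 12, 10 and 9 at 6 h, all under the median signal of 14. Mxd4 had 55, 61 and 45 in vector cells at 12 h, against 118, 93 and 92 at 6 h, and 144, 147 and 135 in K298E cells at 12 h, against 114, 94 and 99 at 6 h.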

How the results depend on the processing

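Between 12 h and 6 h 1870 probe sets passed; 577 genes had moved back and 300 were late. With arrays centred on their medians these were 532, 173 and 60, and the differences from K298E, WT and Δ(177-191) cells were 2, 23 and 338. The cause was not tested. With array weights they were 3017, 921 and 490, and 365 and 219 for K298E and WT. The other added constants, filters, quantile normalization, vector arrays alone and the compared arrays alone kept these counts within 1.5 times. Leaving out 1 of the compared vector arrays gave 1264 to 1393 probe sets between 12 h and 6 h. It gave 90 to 124 differences from WT and 1202 to 1284 from Δ(177-191) cells. Without 1 vector array, those at 0 h included, 414 to 524 genes had moved back and 189 to 276 were late. Leaving out 1 compared vector or K298E array gave 107 to 179 differences from K298E (K298E arrays added after seeing the data). With the replicate block the counts were 1912, 590, 304, 191, 144 and 1552, and no named gene lost its call.

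Median centring left 21 ATF4 rises, 19 replication rises, 3 mitosis rises, 6 hypoxia rises, 2 Myc list falls, 1 immediate early fall and 3 NRF2 falls. Of 131 named genes called, 65 kept their call in every alternative and 66 lost it in at least 1; 62 lost it with median centring, 16 without the filter, 13 in the compared arrays alone and 21 to 30 with any 1 of the compared arrays left out, and none turned its sign while called. Of 117 other probe sets of 72 of these genes (added after seeing the data), 41 were called the same way, 76 were not called and 0 were called the other way. Genes near the median signal of 14, such as Lgals3 at 12 h, have little signal over background.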
